A study of Bos taurus with 34 samples.

Results

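Complement is a set of plasma and tissue proteins that mark microbes, dying cells and foreign cells such as sperm for removal. In the classical pathway C1q binds a target and its proteases C1r and C1s cleave C4 and C2, while in the alternative pathway factor D cleaves factor B once it is bound to C3b. Both pathways, and the lectin pathway, meet at the cleavage of C3, which can lead to a membrane pore that starts with C5b, C6 and C7. Most plasma complement is made in the liver, and epithelia, fibroblasts and macrophages make parts of it locally. The genes described here are 9 complement components of the classical, alternative and terminal pathways, chosen by symbol: C1QA, C1QB, C1QC, C1R, C1S, C3, CFB, CFD and C7. A row of the count table was matched to 8 of the 9, among 21554 matched genes in all, and 7 of them passed the filter on low counts. C1R had no matched row and was not analysed here, and C1QA was too low to test.

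RNA was sequenced from the lining of the oviduct and uterus of 5 adult Holstein heifers that had never calved, whose cycles were synchronised with a progesterone insert and which were killed on day 2 after ovulation. The labels give no genotype, and the 34 libraries are 1 tissue sample each. Tissue came from the ampulla, the wide part of the oviduct, and from the upper and mid horn of the uterus, each on the side of the ovulation (ipsilateral) and on the other side (contralateral), plus 1 sample of the uterine body. That makes 7 groups, all of 5 heifers but for the ipsilateral upper horn, which has 4. Heifers carry the numbers 10872, 10882, 11033, 11070 and 11110. The title of the series asks about maternal signals in these linings, and the comparisons here ask how the complement components differ by region, side and position along the uterus.

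The libraries held between 11619486 and 30412782 counts (median 20610132). Levels are given as CPM, counts per 1000000 counts of the tested transcripts after scaling with TMM factors, so they compare libraries for 1 gene and not genes with each other. A change is called at an adjusted p under 0.05 with edgeR's quasi-likelihood test, which had group and heifer as terms and was fitted to all 17241 transcripts. The endometrium value is the mean of the uterine body and the upper and mid horn. The ampulla libraries were nearly free of connective tissue and vessel transcripts: the summed CPM of 11 stromal markers lay between 44.1 and 134 (median 101), against 38000 to 86900 (median 60900) in the endometrium. DCN, LUM, PDGFRA, PDGFRB and POSTN were at 0 in all 10 ampulla libraries. DCN had an endometrium mean of 43.1 CPM, but the others had at most 2.17, so their 0 says less. COL3A1 and COL1A2 had ampulla means of 9.22 and 58.7 CPM, against 28300 and 20500 for the endometrium. The sum of 10 endothelial markers ran from 3.74 to 11.3 in the ampulla and from 484 to 1090 in the endometrium. In these bulk samples, fewer cells of a type and less RNA per cell cannot be told apart. OVGP1, the oviduct glycoprotein, had a mean of 0.128 ± 0.103 CPM for the endometrium and of 6.08 ± 1.95 in the ampulla (SD over 5 heifers). The contralateral mid horn library of heifer 10882 carried oviduct transcripts, with the basal keratin KRT5 at 454 CPM, against at most 40.5 in the other 23 uterine libraries and at least 762 in the ampulla.

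The tested components split between the ampulla and the endometrium by gene. The central component C3 and the alternative pathway protease CFD rose in the ampulla, with fitted fold changes of 10.6 and 3.98. The classical pathway genes C1S, C1QB and C1QC and the terminal component C7 fell there, C1S by far the most. CFB, the partner of CFD, was not called. In this comparison 6 of the 7 tested components were called, 2 higher and 4 lower, against 64.9% of all transcripts (29.4% higher and 35.6% lower). Of the calls over all transcripts 45.2% were higher in the ampulla, and 32.9% with unscaled library totals. The median log2 fold change of the 7 was -1.28, and that of all transcripts -0.18. Without the library of 10882 named above, and also without that library, the contralateral upper horn of 11033 and the contralateral ampulla of 11070, 6 components were called.

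**Figure D1:**
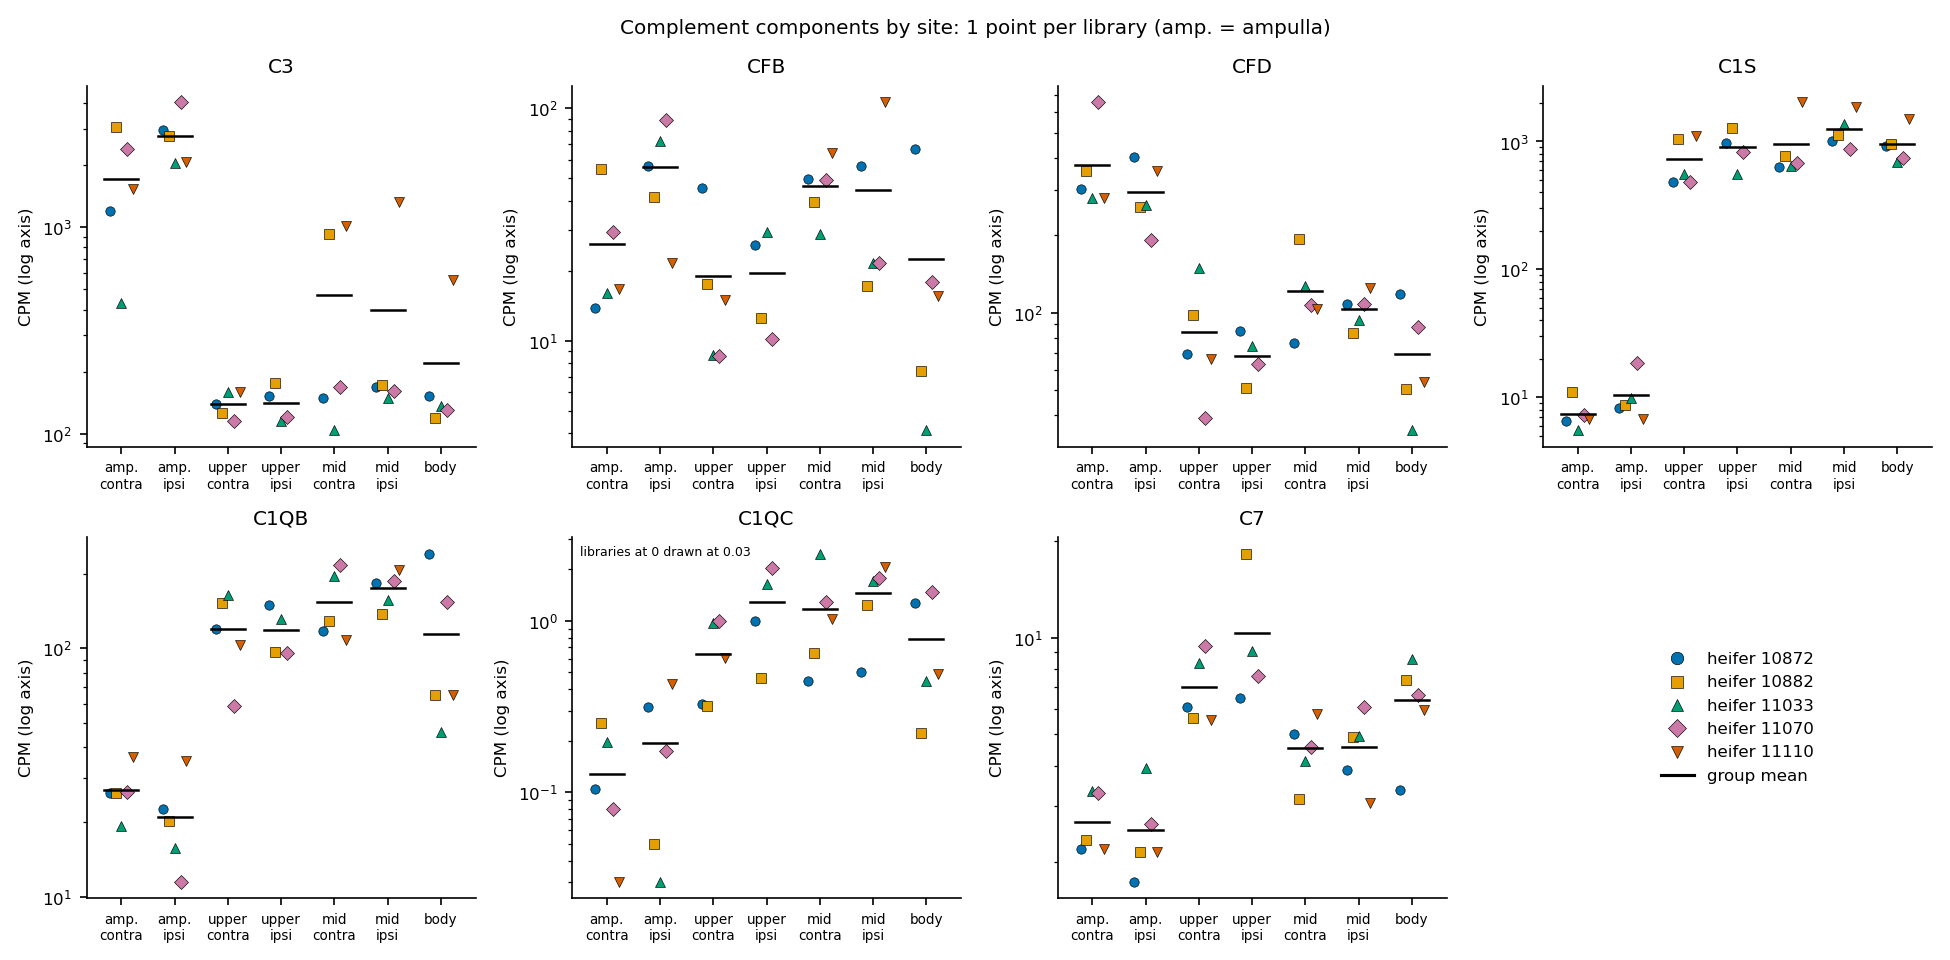
CPM of the 7 tested components (log axis) in the 7 site groups, with 1 point per library, 1 symbol per heifer and a black line at the group mean. C1S and C1QB separate the ampulla from every uterine library, C3 is raised in 4 uterine libraries, and CFB overlaps at all sites.

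C1q is a bundle of 3 kinds of chain, coded by C1QA, C1QB and C1QC, and is made chiefly by macrophages and dendritic cells. The mean of C1QB was 132 ± 28.2 CPM for the endometrium and 24 ± 7.21 for the ampulla (SD, n = 5 heifers), with 26.1, 26.1, 19.3, 26.5 and 36.5 in the contralateral ampulla and 22.7, 20.3, 15.7, 11.5 and 35.1 in the ipsilateral, in the order of the heifer numbers. The 24 uterine libraries ran from 46.1 to 240 with a median of 135, so that every one lay above every ampulla library. The log2 fold change was -2.45 ± 0.24 (SE, adjusted p = 1.1e-10 by edgeR, lower in 5 of 5 heifers).

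C1QC had the same direction at far fewer counts, 28 over the ampulla and 545 over the uterus. Its 10 ampulla libraries ran from 0 to 0.431 CPM with a median of 0.139, and 2 of them were at 0. The uterine libraries ran from 0.222 to 2.46 with a median of 0.996, so the regions overlapped. C1QC was lower in the ampulla by edgeR with a log2 fold change of -2.49 ± 0.45 (adjusted p = 1.34e-05, 5 of 5 heifers). C1QA had 14 counts in all, in 6 of the 24 uterine libraries, and 0 in the 10 ampulla libraries. A count of 0 allows up to 0.017 CPM over the ampulla (3 counts over its libraries, counting error only). C1QA stood at 0.027 CPM over the uterus, 1.57-fold that limit. The counting error of the 14 uterine counts is not in this ratio, so it is not a lower limit of the fold. C1QA has 3 reference transcripts and 1 row here, so its level may be understated. Of the 14 counts, 10 came from the body.

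The summed level of 10 macrophage and monocyte markers moved with C1QB and C1QC. Ampulla libraries had sums of 15.4 to 47.9 CPM (median 30.1) and uterine libraries 92.6 to 322 (median 207). Of its 5 tested genes, 4 fell in the ampulla, among them CSF1R, the receptor for the macrophage growth factor M-CSF, at -2.47 ± 0.20, and CD14, a co-receptor for bacterial lipopolysaccharide, at -3.32 ± 0.32. CD68, CD163, MRC1, TYROBP and MARCO were at 0 in the ampulla, and their endometrium means were at most 0.0525 CPM. The part of macrophage content in the C1q result was not tested.

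C1S codes for the protease that cleaves C4 and C2. Its level was 8.92 ± 2.55 CPM for the ampulla and 968 ± 328 for the endometrium, and the fitted fold change was 103. The contralateral ampulla held 6.54, 11, 5.51, 7.27 and 6.73 CPM in the order of the heifer numbers, and the ipsilateral 8.20, 8.70, 9.88, 18.7 and 6.71. No ampulla library exceeded 18.7 CPM and no uterine library fell below 478. The log2 fold change was -6.69 ± 0.25 (adjusted p = 8.69e-21 by edgeR, 5 of 5 heifers). Within the uterus C1S was highest in heifer 11110, at 1110 in the contralateral upper horn, 2020 and 1870 in the contralateral and ipsilateral mid horn and 1490 in the body. The other 20 uterine libraries ran from 478 to 1360, so the lowest library of 11110 lay among them. Stromal markers fell in the ampulla with C1S, 10 of 10 tested, with a median log2 fold change of -8.45. Their part in the C1S result was not tested.

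C3 is cleaved by both pathways into an anaphylatoxin and a fragment that coats targets. In the ampulla it stood at 2250 ± 807 CPM and in the endometrium at 265 ± 211. The contralateral ampulla of heifers 10872, 10882, 11033, 11070 and 11110 held 1200, 3040, 431, 2390 and 1540 CPM, and the ipsilateral ampulla 2960, 2770, 2040, 4020 and 2070. Of these, 8 lay above every uterine library, and the contralateral ampullae of 10872 and 11033 fell within the uterine range of 104 to 1330. C3 rose in the ampulla by 3.41 ± 0.30 on the log2 scale (adjusted p = 4.69e-11 by edgeR, higher in 5 of 5 heifers).

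The uterine levels of C3 fell into a narrow band and a few high libraries. Of the 24, 20 ran from 104 to 177 CPM. The other 4 were the contralateral mid horn of 10882 at 925 and 3 of the 4 uterine libraries of heifer 11110, with 1010 in the contralateral mid horn, 1330 in the ipsilateral mid horn and 558 in the body. The contralateral upper horn of 11110, at 159, was inside the band. The high library of 10882 is the one that carried oviduct transcripts, and its opposite mid horn held 172. The markers of oviduct secretory and basal epithelium summed to 1270 CPM in that library and to 82.6, 68.5 and 13.6 in the 3 high libraries of 11110, against 0.89 to 39.7 in the other 20 uterine libraries. Their part in the high C3 libraries was not tested.

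CFD, also called adipsin, is the serine protease that cleaves factor B. Its level was 333 ± 57.9 CPM for the ampulla against 85.9 ± 6.67 for the endometrium. The ampulla libraries ran from 191 to 655 with a median of 290, and the uterine ones from 34.9 to 193 with a median of 86.1. The only uterine library above the lowest ampulla library was the contralateral mid horn of 10882 at 193, and the next highest uterine library was at 149. CFD rose in the ampulla by 1.99 ± 0.19 (adjusted p = 7.37e-11 by edgeR, 5 of 5 heifers). Over heifers the uterine means of CFD lay between 78.0 and 95.8, the narrowest spread relative to its mean of the 7 tested components there.

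CFB codes for the factor that carries the protease of the alternative C3 convertase. Its ampulla level was 41.1 ± 15 CPM and its endometrium level 29 ± 15.8, and it was higher in the ampulla in 3 of 5 heifers and lower in 10872 and 11110. The ampulla libraries ran from 13.9 to 88.7 and the uterine libraries from 4.12 to 106, so the regions overlapped over almost their whole range. The log2 fold change was 0.77 ± 0.35 with a 95% interval from 0.06 to 1.48 (adjusted p = 0.0515 by edgeR). DESeq2 called CFB at an adjusted p of 0.0447, and edgeR did so without heifer 10872 (1.11, adjusted p = 0.0063) and without 11110 (1.01, adjusted p = 0.0147). Those are the heifers in which CFB was lower in the ampulla. Without 10882, 11033 or 11070 it was not called. Over all alternatives the adjusted p by edgeR or DESeq2 ran from 0.000414 to 0.352.

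C7 binds C5b-6 and anchors the forming pore in the membrane. Its level was 2.6 ± 0.691 CPM for the ampulla against 6.38 ± 1.32 for the endometrium. Ampulla libraries ran from 1.74 to 3.93 and uterine libraries from 3.06 to 18.2, with a slight overlap. C7 fell in the ampulla by 1.28 on the log2 scale (SE 0.19, adjusted p = 5.9e-07 by edgeR, 5 of 5 heifers).

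The epithelial markers were higher in the ampulla, as C3 and CFD were. The summed CPM of 9 general epithelium markers ran from 5980 to 7950 in the ampulla and from 980 to 4400 in the endometrium, and 6 of the 9 rose and 2 fell. KRT18, a keratin of simple epithelium, rose by 2.92 ± 0.16 and EPCAM, an epithelial adhesion protein, by 1.68 ± 0.15. Of the ciliated epithelium markers 7 of 7 tested rose, with a median of 2.87. Oviduct secretory and basal markers rose in 4 of 4 tested, with a median of 6.12. The part of epithelial content in the C3 and CFD results was not tested. Other markers of cell types moved too: endothelium fell in 8 of 8 tested, smooth muscle in 5 of 5 and T and NK cells in 4 of 5 with 1 higher. B and plasma cell markers held 1 higher and 1 lower of 4 tested, mesothelium 3 higher and 1 lower of 5, and neutrophil markers had 2 matched genes, neither of which passed the filter.

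**Figure D2:**
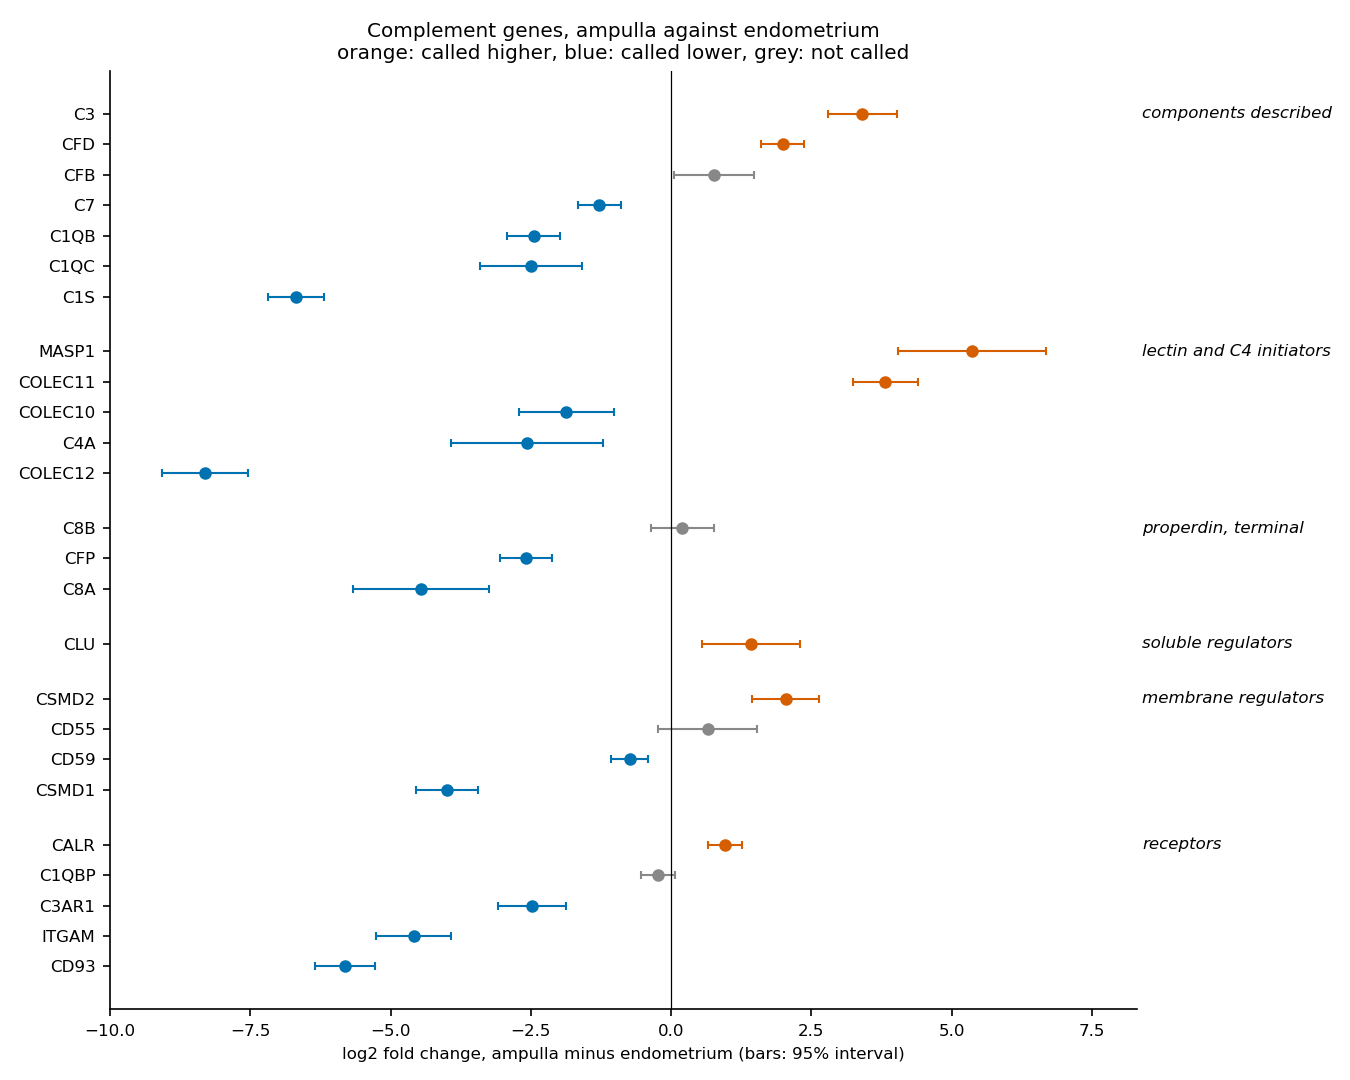
Log2 fold change of the ampulla against the endometrium with its 95% interval for the 7 tested components and 18 other complement genes, grouped by role, from the edgeR fit over 34 libraries. Orange is called higher, blue called lower and grey not called: C3 and CFD stand with MASP1 and COLEC11 on the ampulla side, and C1S with COLEC12 and CD93 on the endometrium side.

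Of 45 other complement genes listed by role, 30 had a matched row and 18 were tested. In the ampulla 5 rose and 10 fell, with a median log2 fold change of -1.31, and 3 were not called, where 29.4% of all transcripts rose and 35.6% fell. Among the lectin pathway genes and C4, 2 rose and 3 fell of 5 tested. COLEC11, a soluble collectin that binds sugars on microbes, rose from 1.27 ± 0.303 to 16.4 ± 2.74 CPM, by 3.82 ± 0.28 on the log2 scale, and its ampulla libraries, from 11.3 to 25.1, all lay above the uterine ones, from 0.187 to 5.62. MASP1, a protease of the lectin pathway, had 89 counts in the ampulla and 5 in the uterus and rose by 5.36 ± 0.64. COLEC12, a scavenger receptor with a collectin domain, fell by 8.31 on the log2 scale (SE 0.37), from 334 ± 88.1 CPM to 1.10 ± 0.741, without overlap. COLEC10, which pairs with COLEC11, fell by 1.87 (SE 0.41) and overlapped. C4A fell by 2.57 (SE 0.67) on 7 and 118 counts, and its near-identical copy makes that row uncertain.

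Properdin, coded by CFP, stabilises the alternative convertase and is made by myeloid cells. It moved against CFD and C3: the level of CFP fell by 2.59 (SE 0.22), from 23.7 ± 3.15 CPM in the endometrium to 4.05 ± 2.04 in the ampulla, with ampulla libraries from 1.11 to 8.47 and uterine ones from 15.1 to 34.1. Of the pore subunits, C8A fell by 4.45 (SE 0.60) and C8B, at 1.78 ± 0.392 and 1.68 ± 0.755 CPM, was not called (0.20 ± 0.28, and -0.13 with unscaled library totals). C6 and C9 had at most 0.0795 and 0.794 CPM in any library and were not tested.

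Soluble and membrane regulators limit complement on host cells. CLU, clusterin, a soluble regulator, rose by 1.43 ± 0.43 at under 2 CPM. Of the membrane regulators, CD59, which blocks the pore, fell from 131 ± 38.1 to 76.4 ± 20.3 CPM (log2 -0.74 ± 0.16), CSMD1 fell from 13 ± 3.71 to 0.806 ± 0.243 CPM and CSMD2 rose by 2.04 ± 0.29. CD55, which speeds the decay of the convertases, was not called (0.65 ± 0.44, adjusted p = 0.191 by edgeR). CLU has 3 reference transcripts and CD55 has 10, with 1 row each here, so their levels may be understated.

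The receptors were higher in the endometrium in 3 of 5 tested. C3AR1, the receptor of the C3a fragment, fell in the ampulla from 19.1 ± 3.99 to 3.53 ± 1.62 CPM (-2.47 ± 0.30), although C3 itself rose there. ITGAM, a chain of complement receptor 3 on myeloid cells, fell by 4.59 (SE 0.33). CD93, a C-type lectin of endothelium and myeloid cells once described as a C1q receptor, fell by 5.81 (SE 0.26), and its ampulla libraries, up to 7.14 CPM, lay far below the uterine ones, from 91.7. CALR, calreticulin, which binds C1q at the cell surface but is chiefly a chaperone of the endoplasmic reticulum, rose by 0.96 ± 0.15. C1QBP was not called (-0.23 ± 0.15, adjusted p = 0.177 by edgeR), and with DESeq2 size factors it was (-0.32, adjusted p = 0.0377).

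On the ovulatory side, C3 and CFB had the highest means of any group in the ampulla, but no component was called by edgeR between the sides. The share of all transcripts called was 0.0174% for the ampulla, 0.0058% for the upper horn and 0% for the mid horn. No component had an unadjusted p under 0.05 in any of these 3 comparisons, and DESeq2 called none. In the ampulla C3 stood at 2770 ± 810 CPM on the ipsilateral and 1720 ± 1020 on the contralateral side (n = 5), and it was higher ipsilaterally in 4 of 5 heifers: 2.48-fold in 10872, 4.73-fold in 11033, 1.68-fold in 11070 and 1.35-fold in 11110, with a ratio of 0.913 in 10882. The log2 difference of 0.87 ± 0.49 had a 95% interval from -0.14 to 1.88 (adjusted p = 0.696 by edgeR), so a difference of over 3-fold is within it, as is none.

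CFB followed C3 heifer by heifer in the ampulla. It stood at 56.1 ± 26.1 CPM ipsilaterally and 26.2 ± 17.1 contralaterally, with ratios of 4.06 in 10872, 0.764 in 10882, 4.49 in 11033, 3.01 in 11070 and 1.29 in 11110. Its log2 difference was 1.08 ± 0.58 with an interval from -0.10 to 2.26 (adjusted p = 0.685 by edgeR). With no filter on low counts, edgeR called C3 (0.93, adjusted p = 0.0122) and CFB (1.13, adjusted p = 0.0496). In that setting 150 transcripts were called over the whole table, against 3 with the filter. The SE of C3 was 0.22 there, against 0.49 with the filter.

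The other components differed less between the ampullae. C1S had a log2 difference of 0.57 ± 0.29 (adjusted p = 0.685 by edgeR), led by the ipsilateral library of 11070 at 18.7 CPM. CFD had one of -0.35 ± 0.33, with 655 CPM contralaterally and 191 ipsilaterally in heifer 11070, and without that heifer the difference was 0.06. C1QB was lower on the ipsilateral side in 5 of 5 heifers, at 21 ± 8.96 against 26.9 ± 6.17 CPM, with an interval of -1.06 to 0.32 (adjusted p = 0.769 by edgeR). C7 was level at 2.52 ± 0.851 and 2.67 ± 0.586.

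**Figure D3:**
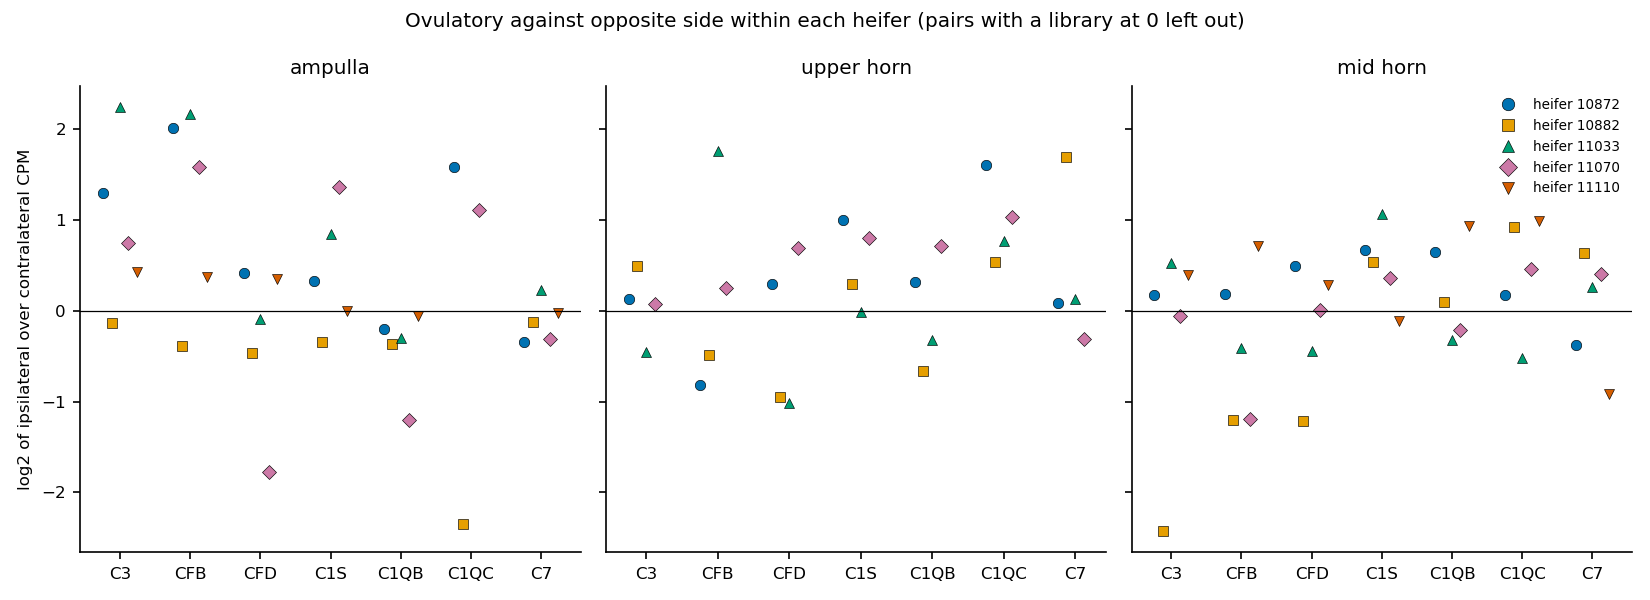
Log2 ratio of the ipsilateral to the contralateral CPM in each heifer for the 7 tested components, in the ampulla, the upper horn and the mid horn, with 1 symbol per heifer and a line at no difference (pairs with a library at 0 left out). C3 and CFB lie above the line in 4 of 5 heifers in the ampulla, and the low C3 point of the mid horn is heifer 10882.

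In the uterine horns the side differences of C3 and CFB lay nearer to 0. C3 stood at 141 ± 28.6 CPM ipsilaterally and 135 ± 18.7 contralaterally in the upper horn of the 4 heifers with both sides. In the mid horn it stood at 396 ± 521 and 471 ± 453 (log2 -0.35 ± 0.50), and without the contralateral library of 10882 the difference was 0.18. C1QC was higher on the ipsilateral side of the upper horn in 4 of 4 heifers (0.98 ± 0.63, adjusted p = 0.769 by edgeR), on 110 and 61 counts. C1S was higher ipsilaterally in the mid horn in 4 of 5 heifers (0.48 ± 0.28) and in the upper horn in 3 of 4 (0.47 ± 0.30, adjusted p = 0.768 by edgeR).

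The difference between the side effects was tested itself. None of the 7 components was called by edgeR, where 0% of transcripts were, none had an unadjusted p under 0.05 and DESeq2 called none. C3 had the side effect more toward the ipsilateral side in the ampulla than in the horn in 5 of 5 heifers, by 0.96 ± 0.61 (interval -0.28 to 2.20, adjusted p = 0.955 by edgeR), and CFB in 4 of 5, by 1.02 ± 0.70. For C3, heifer 10882 counted only through its mid horn ratio of 0.186, which rests on the library that carried oviduct transcripts. Its upper horn ratio of 1.4 exceeded its ampulla ratio of 0.913. Heifer 11110 had 1.35 in the ampulla and 1.32 in the mid horn, with no upper horn pair.

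Along the uterus, with the sides averaged, the mid horn held the highest mean of every tested component but C7, whose mean was highest in the upper horn. EdgeR called no component between the upper horn and the mid horn, where 0.0174% of all transcripts were called, 0.0116% higher and 0.0058% lower in the upper horn. At an unadjusted p under 0.05 there were 4, C3, CFB, CFD and C7, against 6.08% of all transcripts, and DESeq2 called 1, C7. C7 stood at 8.2 ± 2.51 CPM in the upper horn and 4.56 ± 0.477 in the mid horn (n = 5), higher in 5 of 5 heifers. Its log2 difference was 0.86 ± 0.21 (adjusted p = 0.427 by edgeR). DESeq2 gave 0.89 (adjusted p = 0.0123). The contralateral upper horn held 6.08, 5.64, 8.31, 9.44 and 5.53 CPM and the ipsilateral 6.47, 18.2, 9.11 and 7.61, against 5.03, 3.16, 4.12, 4.58 and 5.79 in the contralateral and 3.89, 4.91, 4.95, 6.09 and 3.06 in the ipsilateral mid horn. The ranges overlapped between 5.53 and 6.09 CPM only, and the highest library was the ipsilateral upper horn of 10882. The 6 smooth muscle markers were also high in that library, with a sum of 3300 CPM, and at 3570 in the ipsilateral upper horn of 11033, against 224 to 1200 in the other 22 uterine libraries. Their part in the C7 result was not tested.

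CFB, CFD and C3 had the opposite order to C7 along the horn. CFB stood at 18.9 ± 10 CPM in the upper and 45.6 ± 24.8 in the mid horn, lower in the upper horn in 5 of 5 heifers (-1.22 ± 0.43, adjusted p = 0.787 by edgeR). CFD stood at 75.9 ± 22.2 and 113 ± 16.6 (-0.59 ± 0.24, 4 of 5 heifers). C3 stood at 142 ± 15.8 and 433 ± 445 (-0.99 ± 0.38, 4 of 5 heifers), with the mid horn mean carried by the libraries of 10882 and 11110. C1QB stood at 118 ± 27.6 and 164 ± 25.9 and was lower in the upper horn in 5 of 5 heifers (-0.46 ± 0.25, adjusted p = 0.79 by edgeR).

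**Figure D4:**
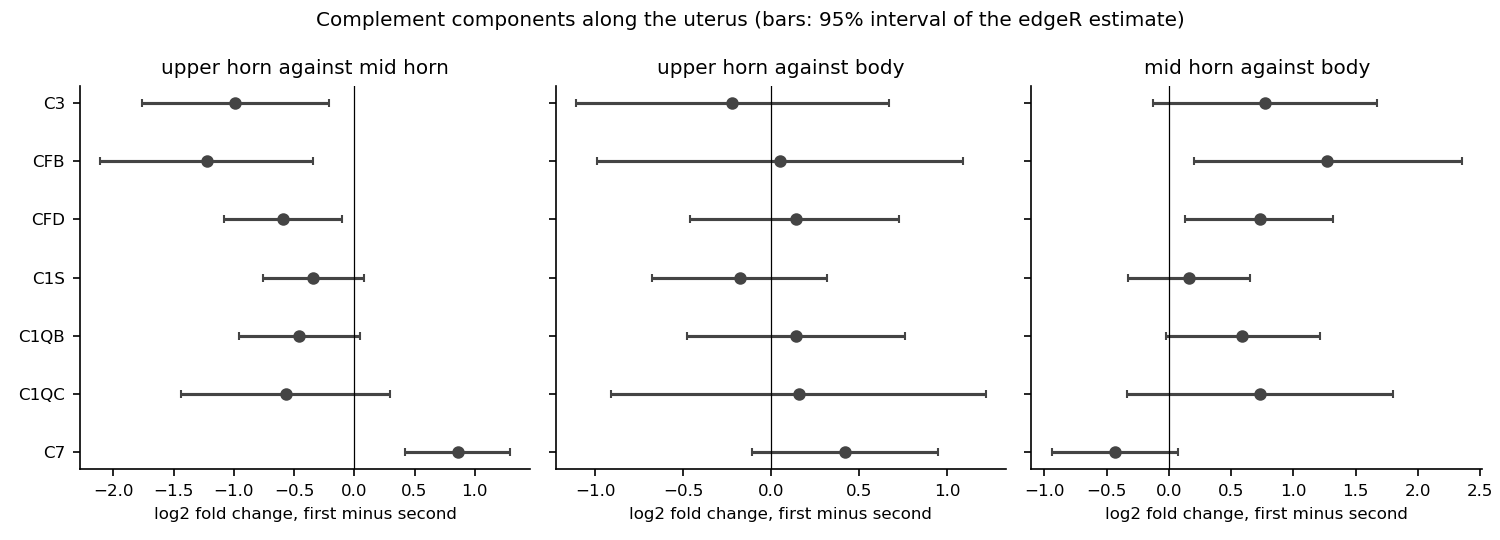
Log2 fold change with its 95% interval for the 7 tested components in the upper horn against the mid horn, the upper horn against the body and the mid horn against the body, from the edgeR fit. No component was called; C7 lies to the right and C3, CFB and CFD to the left in the upper horn against the mid horn.

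Between the upper horn and the body no component was called by edgeR or DESeq2 (0.0232% of all transcripts were by edgeR), and none had an unadjusted p under 0.05. The largest difference was that of C7, at 0.42 ± 0.26. Between the mid horn and the body edgeR called none of the 7, against 4.45% of all transcripts (0.528% higher and 3.92% lower in the mid horn), 2 had an unadjusted p under 0.05, where 28% of all transcripts did, and DESeq2 called none. The share of components is thus near that of all transcripts. These were CFB, at 45.6 ± 24.8 and 22.4 ± 25.6 CPM (1.27 ± 0.53, adjusted p = 0.115 by edgeR), and CFD, at 113 ± 16.6 and 69.1 ± 33.6 (0.73 ± 0.29, adjusted p = 0.105 by edgeR). Heifer 10872 went against the rest in CFB, with 67.1 CPM in the body against 49.8 and 56.7 in the mid horn. Without it edgeR called 1835 transcripts, 508 of them higher in the mid horn, against 767 and 91 with it, and among them 3 components higher in the mid horn: CFB (1.86, adjusted p = 0.0369), CFD (1, adjusted p = 0.0422) and C1QB (0.98, adjusted p = 0.0496). The epithelial keratins moved with them, with KRT8 at 538 ± 97.2 and 290 ± 142 CPM (0.93 ± 0.22) and KRT7 at 326 ± 66.1 and 158 ± 171 (1.31 ± 0.34), both called, and 4 of 9 general epithelium markers rose and none fell. Over all transcripts 1 call was left without the mid horn library of 10882, and 1 without heifer as a term, and neither was higher in the mid horn, so these 4 marker calls were lost in both settings. Their part in the CFB and CFD values was not tested.

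None of the 18 other complement genes was called by edgeR or DESeq2 in any comparison between sides or within the uterus. At an unadjusted p under 0.05 there were 1 to 3 of the 18 in each of these 7 comparisons, where 2.98% to 28% of all transcripts were.

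Groups next to each other in the order of their means mostly overlapped. Of the 42 pairs of groups that are neighbours in the order of a component's means, 40 overlapped in their library values, and the 2 that did not were the steps between uterus and ampulla of C1S (478 against 18.7) and C1QB (46.1 against 36.5). C1S ran from 1250 ± 389 in the ipsilateral mid horn through 961 ± 318 in the body, 951 ± 599 in the contralateral mid horn and 908 ± 300 in the ipsilateral upper horn to 735 ± 315 in the contralateral upper horn. C1QB ran from 174 ± 26.8 and 153 ± 49.2 in the mid horns through 120 ± 42.1 and 118 ± 26.3 in the upper horns to 114 ± 81.9 in the body. The body had the widest relative spread of C1QB, from 46.1 to 240 CPM, with 10872 at 240 and 11070 at 154 and the other 3 heifers at 65.0 or below. CFD followed that split of the heifers in the body, with 118 in 10872, 87.8 in 11070 and 34.9 to 53.9 in the others.

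**Figure D5:**
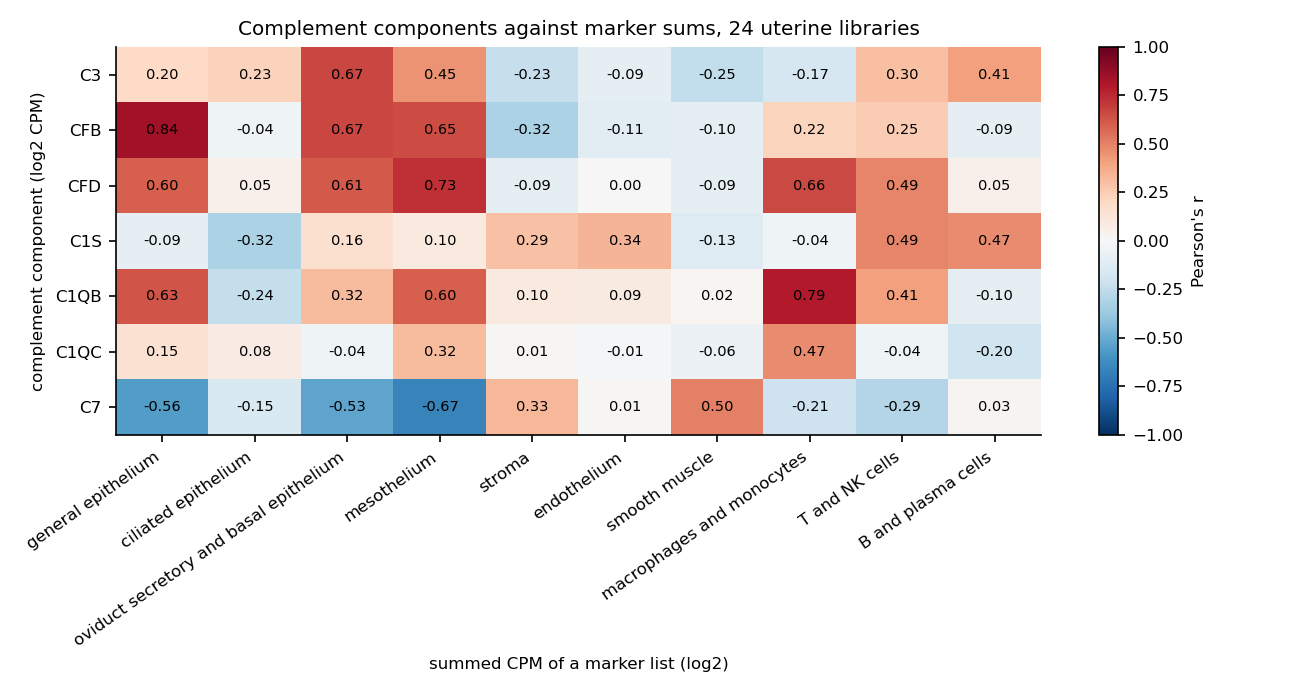
Pearson's r over the 24 uterine libraries between log2 CPM of each tested component and the log2 summed CPM of each marker list but neutrophils, on a colour scale from -1 to 1, as a description with no test. The highest squares are CFB with general epithelium at 0.84 and C1QB with macrophages and monocytes at 0.79.

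Within the uterus the components differed in the marker list they varied with most, and some lists were shared. The correlations here are Pearson's r of log2 CPM over 24 libraries that share heifers, sites and library composition, and they are a description only. CFB varied with general epithelium markers (r = 0.84, and 0.84 without the mid horn library of 10882) and C1QB with macrophage and monocyte markers (0.79, and 0.79 without it). CFD varied with both lists (0.60 and 0.66, and 0.55 and 0.70 without it) and with mesothelium markers (0.73, and 0.65 without that library), a list that shares MSLN with the oviduct secretory list. C1QB varied also with general epithelium (0.63, and 0.66 without that library) and mesothelium (0.60, and 0.73). CFB did so with the oviduct secretory and basal list (0.67, and 0.83 without that library) and mesothelium (0.65, and 0.71). C7 varied against mesothelium (-0.67, and -0.62 without it) and general epithelium (-0.56, and -0.51) and with smooth muscle (0.50, and 0.55). The highest r of C1S was 0.49, with T and NK cell markers (0.53 without it), and its r with stroma was 0.29 (0.28 without it), although both were far lower in the ampulla. C3 had 0.67 with the oviduct secretory and basal list, and 0.56 without the library of 10882.

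Among the components themselves, CFD and C1QB varied together most closely in the uterus, with r = 0.84 over 24 libraries and 0.92 without the mid horn library of 10882. Over all 34 libraries their r was -0.56, since CFD was higher and C1QB lower in the ampulla. C3 and C1S, which lay at opposite ends between the regions (-0.76 over 34 libraries), varied together within the uterus (0.62, and 0.74 without that library) and within the 10 ampulla libraries (0.74). In the uterus both were highest in heifer 11110. C1QB and C1QC, chains of the same protein, had 0.51 in the uterus (0.52 without it) and 0.80 over 34 libraries, with few counts behind C1QC. CFB and C7 varied in opposite directions in the uterus (-0.68 with and without it).

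The genes most like each component were taken as the 3 with the highest r over 34 libraries and over the 24 uterine ones. For C1S these were WNT2 (0.992), CRISPLD2 (0.992) and DCN (0.990) over all libraries, and SVEP1 (0.808), AEBP1 (0.783) and CXCL12 (0.772) in the uterus. For C1QB they were FCGR1A, an Fc receptor of myeloid cells (0.972), LAPTM5 (0.964) and MPEG1, which codes for a pore-forming protein of macrophages (0.962), and in the uterus FCGR1A again (0.887), TF (0.885) and RALA (0.876). For C3 they were ENTPD2 (0.922), FER1L4 (0.915) and CCL26 (0.912), and in the uterus OR51F5C (0.830), SSTR1 (0.781) and RESP18 (0.780).

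CFB was most like UPK3BL2 (0.844), PFKL (0.818) and MPZL2 (0.807), and in the uterus like UPK3BL2 (0.933), POF1B (0.932) and S100A2 (0.913). CFD was most like AKR7A2 (0.941), TOR4A (0.938) and ATP6V0E1 (0.938), and in the uterus like CALU (0.879), GPX1 (0.874) and TOR4A (0.852). C7 was most like MYLK, the kinase of myosin light chains in smooth muscle (0.864), MYOC (0.838) and GDNF (0.83), and in the uterus like THBD (0.726), MYLK (0.702) and MYOC (0.700). C1QC had COL26A1 (0.845), SFRP4 (0.842) and PTI (0.824), and POPDC3 (0.737) and COL26A1 (0.716) in the uterus. Values over all 34 libraries chiefly follow the difference between ampulla and endometrium.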

How the data were processed

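The data are 34 RNA-seq libraries of 5 heifers. The single table the authors deposited holds counts of reads per transcript, not normalised. Per the submitters' processing notes the tools were cutadapt, STAR 2.7.9a, SAMtools and HTSeq, with no roles stated. Libraries came from a directional kit on total RNA, per the labels' protocols. Which build, annotation, strand setting and counting mode applied is not given in the sources used here. Rows are mostly single transcripts, so reads shared by transcripts of a gene can be missing from it, and near-identical genes such as the C4 pair, or antisense genes, are uncertain.

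Of 38568 features, 26362 were matched to 21554 genes, with 95.3% of counts, by RefSeq names (assembly ARS-UCD2.0), used for names only. The row with the highest mean count stood for a gene; each matched component had 1 row. No sequences or coordinates were used.

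EdgeR 4.0.16 in R 4.3.3 used TMM scaling, filterByExpr by group, robust dispersions and quasi-likelihood F tests on a model of group plus heifer, over all 34 libraries. P-values were adjusted by Benjamini-Hochberg over 17241 transcripts in each of 8 contrasts and called under 0.05. SE is the log2 fold change divided by the square root of F, and intervals are 95%. For means ± SD, each heifer's libraries of a region were averaged first. The script was tested on simulated data. Blocking by heifer follows the labels, which place libraries of all 5 animals in each group but the ipsilateral upper horn: deviations from group means had a median correlation of 0.207 over 99 same-heifer library pairs and -0.0539 over 396 pairs of other heifers and groups. No 2 libraries of a group agreed within sampling noise (chi-square per transcript at least 44.8 over 66 pairs). Correlations used log2 CPM with a prior count of 2. Intervals and limits from counts cover counting error only.

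The 9 components were given, and the 5 lists of other complement genes, the 11 marker lists and the contrasts were chosen with earlier results of these data known. All 9 components are named. Of each list of other complement genes, up to 4 were named by size among those called in the same direction in all heifers between ampulla and endometrium, with any called elsewhere, and of each marker list up to 3 by mean CPM. COLEC10, C6, C9, the genes not called, OVGP1, KRT5 and KRT7 were chosen after their values were seen. Alternatives were DESeq2 1.42.0 as a test and as size factors, unscaled totals, other filters, summed rows, no heifer term, and leaving out heifers or doubted libraries. The ipsilateral upper horn of 11110 was not analysed here, and some items are not reported here.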

Additional observations from a re-analysis of the deposited data

Results flagged for a closer look

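In 49 sets of a component's values in a site group, 7 held 1 library whose gap to the next was large against the range of the group (Dixon's 95% limit, 0.71 for 5 libraries). Chance gives about 1 such set in 20 for independent values with a normal distribution. The CPM were not put on a log scale, and the sets share heifers and libraries, so the 7 cannot be set against that share. All 7 were the highest library. Heifer 11110 gave 3 of them: C3 in the ipsilateral mid horn at 1330 CPM (next 172), C3 in the body at 558 (next 152) and C1S in the contralateral mid horn at 2020 (next 776). Heifer 10872 gave CFB in the contralateral upper horn at 45.6 (next 17.6) and in the body at 67.1 (next 17.9). General epithelium markers summed to 4390 and 3870 CPM in these 2 libraries, the highest sum of each site, and their part in the CFB values was not tested. Heifer 11070 gave CFD in the contralateral ampulla at 655 (next 355) and C1S in the ipsilateral ampulla at 18.7 (next 9.88). That contralateral ampulla library held the fewest features with a count of all 34 libraries (15773).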

How the results depend on the processing

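Between ampulla and endometrium, C3, CFD, C1S, C1QB, C1QC and C7 kept direction and call under all 14 alternatives, with log2 ranges of 3.06 to 3.70, 1.69 to 2.04, -6.94 to -6.50, -2.74 to -2.33, -2.80 to -2.24 and -1.59 to -1.18. CFB ran from 0.41 to 1.11 (adjusted p 0.000414 to 0.352). Components called numbered 6 or 7, also when a heifer was left out. Without the heifer block 6 were called there and 0 in every other comparison. No direction of a called value was reversed. Unscaled totals moved the median of all transcripts from -0.18 to -0.48 and the share of calls that were higher in the ampulla from 45.2% to 32.9%; DESeq2 size factors moved the median to -0.27.

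Components called went from 0 to 2 with no filter on low counts for the ampulla sides and for the upper against the mid horn, to 1 with DESeq2 for the latter, and to 3 with no filter for the mid horn against the body, where leaving out a heifer gave 0 to 3. With no filter the calls over all transcripts rose too. They went from 3 to 150 for the ampulla sides and from 3 to 207 for the upper against the mid horn. For the mid horn against the body they went from 767 to 2057. The DESeq2 test called 21 transcripts for the upper against the mid horn. In the remaining comparisons the number of components called stayed 0 in every alternative. The cause was not tested. The whole-table count of the mid horn against the body was unstable: 767 calls, 1 without the block, 1 without the contralateral mid horn library of 10882, 0 without 10882 or without 11070, 2 without 11033 and 2714 with DESeq2. There were 1228 calls without 3 doubted libraries, that of 10882 among them, 1835 without 10872, 1045 without 11110 and 1020 with the stricter filter. Low counts limit C1QA and C1QC, and 5 heifers limit the side comparisons.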

Other observations

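C8A, chosen for a closer look after its values were seen, differed between heifers in the uterus: its 5 libraries of 11070 ran from 11.4 to 29.1 CPM, those of 11033 from 1.87 to 9.28, of 11110 from 2.16 to 6.96, of 10872 from 0.814 to 2.11 and of 10882 from 0 to 0.318. B and plasma cell markers summed to 726 to 1820 CPM in the uterine libraries of 10882 and to at most 601 in those of the other heifers.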
